A study of Mus musculus with 82 samples.

Results

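The 8 genes Mecom, Prdm16, Hlf, Mllt3, Gfi1, Msi2, Meis1 and Pbx3, known to control the self-renewal of hematopoietic stem cells (HSCs), were followed by name through the gene counts, accessible regions and histone peaks of HSCs and their progeny. All 8 of the 8 symbols were found among the 55376 genes counted. HSCs came from wild-type male C57BL/6J mice, sorted as LSK CD34- Flk2- CD150+ cells of the bone marrow, at 3 to 4 months of age (YHSCs, 4 mRNA-seq libraries, each from pooled mice) or at 24 to 26 months (OHSCs, 8 libraries, each from 1 mouse). For the knockdown experiments, OHSCs were transduced with lentivirus carrying a scrambled control shRNA, shRNA1 or shRNA2, both directed at the shorter Btaf1 variant (nBtaf1), and were profiled either after culture or as donor LSK CD48- CD150+ cells sorted from irradiated young female recipients months after transplantation (2 libraries per shRNA and setting, the transplanted ones from pooled recipients). Common myeloid progenitors (CMPs), granulocyte-macrophage progenitors (GMPs) and megakaryocyte-erythroid progenitors (MEPs) of young mice had 2 libraries each. Chromatin of YHSCs and OHSCs was covered by ATAC-seq (4 libraries per age) and by H3K27ac ChIP-seq (2 per age), and YHSCs by H3K4me3 and H3K27me3 ChIP-seq (2 each). The OHSC ATAC-seq libraries are those labelled 5 to 8, and further OHSC samples of ATAC-seq, H3K4me3 and H3K27me3 were not analysed here. Separate cultures or donors are not stated for every pair of replicates, so p-values measure the spread between these libraries.

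An HSC either renews itself or enters a lineage, and the choice is held by a network of transcription factors and regulators of chromatin and RNA. Mecom encodes the EVI1 and MDS1-EVI1 zinc finger factors, and Prdm16 encodes a close relative of MDS1-EVI1; loss of either depletes HSCs in mice. Hlf is a bZIP factor of the PAR family and marks the most primitive HSCs, and Mllt3 (AF9) reads acylated histones and brings DOT1L and the elongation machinery to genes. Gfi1 is a zinc finger repressor that restrains HSC cycling and is needed for neutrophil formation. Msi2 is an RNA-binding protein that controls translation. Meis1 and Pbx3 are TALE homeodomain factors that bind DNA together with HOXA9 and other HOX proteins, and both are known from leukemias driven by that complex.

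Depth lay between 20.5 and 24.7 M (mega) reads on genes in YHSC and OHSC libraries, between 33.2 and 36.5 M in progenitors, and between 37.3 and 42.7 M in the knockdown experiments. Levels are given as CPM, the count of a gene per M reads on genes, which are not divided by gene length, so they were compared between samples and never between genes. In all HSC groups the 10 HSC markers (Procr, Slamf1, Fgd5 and others) had reads, with sums of 3890 to 4229 CPM in YHSCs and OHSCs, 1835 to 2033 CPM in cultured and 2892 to 3217 CPM in transplanted OHSCs. On GRCm38 all 8 genes lie on the minus strand, Mecom at chr3:29951296-30548008, Prdm16 at chr4:154316125-154636873, Hlf at chr11:90336536-90390895, Mllt3 at chr4:87769925-88033364, Gfi1 at chr5:107716657-107726036, Msi2 at chr11:88339382-88718513, Meis1 at chr11:18879817-19018985 and Pbx3 at chr2:34171457-34373142. Exons that overlap another gene make up 9.77% of the exon bases of Meis1 (with Gm37818), 3.17% of Gfi1, 1.17% of Prdm16 and 0.652% of Mecom. The sources used here do not give the strand setting of the counting, so part of the Meis1 count could belong to such neighbors, among them the antisense gene Gm16140.

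With age, 1 of the 8 regulators changed strongly and 7 had log2 fold changes of -0.09 to 0.16. Pbx3 rose 2.45-fold in OHSCs. Meis1, Prdm16 and Mllt3 rose 1.10- to 1.11-fold, and Mecom, Hlf, Msi2 and Gfi1 did not pass the test. In edgeR's quasi-likelihood test with Benjamini-Hochberg adjustment, 4 of 8 regulators passed an adjusted p of 0.05, all of them higher in OHSCs, against 21.1% of the 21522 genes tested (12.8% higher). With a fold change above 1.5 as well, 1 of 8 was called, against 7.56% of all genes. The median log2 fold change was 0.14 over the 8 regulators and 0.00 over all genes.

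Of the homeodomain factors, Pbx3 had 31.1, 27.3, 33.1 and 27.4 CPM in the 4 YHSC libraries, and 65.6 to 79.3 CPM (median 69.6) in the 8 OHSC libraries. Every OHSC library was above every YHSC library, a separation found for 15.1% of all genes. The log2 fold change was 1.29 (standard error, SE, 0.0649, 95% interval 1.16 to 1.43, adjusted p = 4.39e-13 from edgeR). Meis1, its partner on DNA, had 666, 702, 673 and 666 CPM in YHSCs and 683 to 760 CPM (median 710) in OHSCs. These ranges overlapped, and the log2 fold change was 0.13 (SE 0.0338, adjusted p = 0.00616).

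Among the PR domain factors, Prdm16 had 109, 113, 118 and 111 CPM in YHSCs and 115 to 127 CPM (median 121) in OHSCs, with a log2 fold change of 0.15 (SE 0.0406, adjusted p = 0.0102 from edgeR). Mecom had 337, 341, 365 and 350 CPM in YHSCs and 282 to 357 CPM (median 327) in OHSCs. Its log2 fold change of -0.04 had a 95% interval of -0.14 to 0.05, and the change of Pbx3 lies outside it. Mllt3 had 287, 306, 308 and 315 CPM in YHSCs and 301 to 346 CPM (median 323) in OHSCs (log2 fold change 0.14, SE 0.0403, adjusted p = 0.0142). The small rises of Prdm16, Mllt3 and Meis1 did not pass when genes with low counts were kept in the test (adjusted p = 0.0536 to 0.0717). Without 1 YHSC library, Prdm16 did not pass when replicate 1, 2 or 4 was left out, Mllt3 when replicate 1, 2 or 3 was left out, and Meis1 when replicate 4 was left out (adjusted p = 0.0520 to 0.113).

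Hlf had 653, 623, 645 and 629 CPM in YHSCs and 532 to 612 CPM (median 589) in OHSCs. All YHSC libraries lay above all OHSC libraries, but the difference was small, and after TMM scaling the log2 difference was -0.09, which did not pass (adjusted p = 0.117, edgeR). Msi2 had 109, 114, 108 and 105 CPM in YHSCs and 88.4 to 106 CPM (median 102) in OHSCs (log2 fold change -0.07, adjusted p = 0.280). Gfi1 was the regulator that varied most between old mice. Its 4 YHSC libraries had 24.2, 24.4, 24.9 and 25.0 CPM, and its 8 OHSC libraries 19.2 to 39.1 CPM (median 24.7), on either side of the young values. The young libraries are pools and the old ones single mice, so the spread of the 2 ages cannot be compared. The log2 fold change of Gfi1 was 0.16 with a 95% interval of -0.22 to 0.53.

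**Figure D1:**
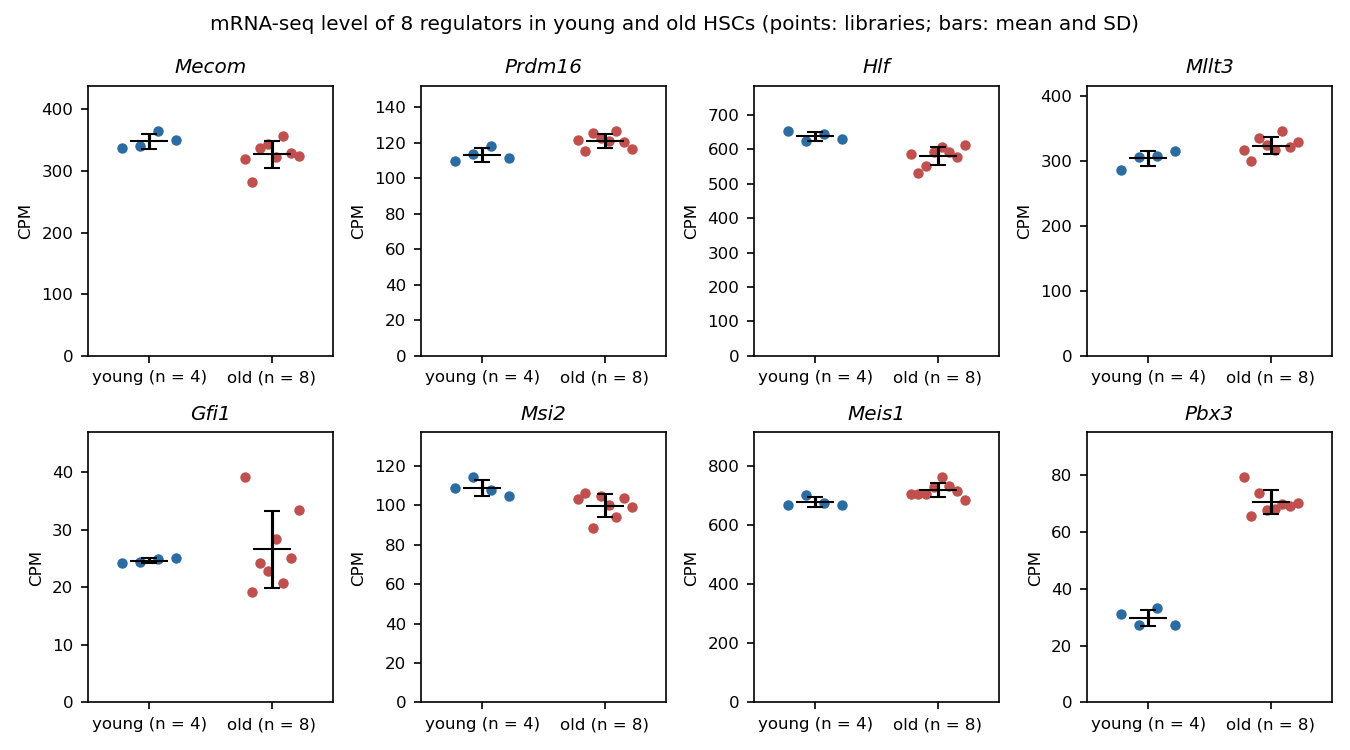
mRNA-seq level (CPM, linear axes from 0) of each regulator in YHSCs (blue, n = 4) and OHSCs (red, n = 8); points are libraries, and bars are the mean and SD. The 8 OHSC libraries of Pbx3 lie at 65.6 to 79.3 CPM, all above the YHSC libraries at 27.3 to 33.1 CPM, while the other 7 panels show small or no shifts.

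Related genes gave a background for these values. Of 10 close paralogs of the regulators, 2 were higher and 2 lower in OHSCs. Tef, a PAR bZIP relative of Hlf, fell from 63.4 ± 2.86 CPM (SD, n = 4) to 38.7 ± 2.24 CPM (SD, n = 8; log2 fold change -0.66, adjusted p = 1.82e-09 from edgeR). Of 20 binding partners and cofactors, 5 passed, all of them lower (Hoxa9, Hoxa10, Kmt2a, Dot1l and Ctbp2), and none with a fold change above 1.5. Hoxa9, which binds DNA with MEIS1 and PBX3, went from 111 ± 1.54 to 90.6 ± 4.72 CPM (log2 fold change -0.24, adjusted p = 8.51e-05). Of 16 other transcriptional regulators of stem cells, 8 passed higher and 1 lower, none called. The median log2 fold change of the 3 lists was 0.02, -0.06 and 0.17.

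Markers of other cells moved with age as well. The 6 B cell markers summed to 82.3 to 151 CPM in YHSCs and 33.2 to 40.9 CPM in OHSCs, and all 6 passed lower. The 7 GMP and neutrophil precursor markers summed to 145 to 171 CPM in YHSCs and 307 to 352 CPM in OHSCs, and the 6 megakaryocyte markers to 488 to 508 CPM and 856 to 1186 CPM. The 7 MEP and erythroid markers summed to 165 to 228 CPM and 42.1 to 195 CPM. Of the tested GMP markers 1 passed higher and 1 lower, of the megakaryocyte markers 3 higher, and of the erythroid markers 2 higher and 5 lower. Single libraries stood apart in mature granulocyte markers, which summed to 4.77, 4.44, 188 and 105 CPM in the 4 YHSC libraries and to 93.3 CPM in OHSC replicate 2 against 3.32 to 10.8 CPM in the other OHSC libraries. Macrophage markers summed to 94.4 CPM in OHSC replicate 3 and 17.4 to 35.5 CPM in all others. Of 5 markers each, 0 passed in edgeR (1 granulocyte and 0 macrophage markers at an unadjusted p below 0.05), and 1 granulocyte marker in DESeq2. None of these markers was at 0 in a whole group, and their part in the changes above was not tested. In bulk libraries, fewer cells of a type and less RNA per cell cannot be told apart.

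Consensus ATAC-seq regions with their middle inside a gene or within 10 kb of it numbered 294, of which 213 had enough reads (above 1.5 CPM in at least 4 libraries). Of these, 28 passed an adjusted p of 0.01 in edgeR (13.1%), 15 higher and 13 lower in OHSCs. Over all 89245 regions 23.2% passed, 13.7% higher and 9.53% lower. With a fold change above 1.5 as well, 11 regions were called higher and 3 lower (13% of all regions were called). Of the regions that passed higher, 2 (both called) had all 4 YHSC libraries below the minimum and so entered the test only through OHSCs; without them 13 passed higher and 9 were called higher. Of the 8 promoter regions 3 passed, those of Hlf, Gfi1 and Msi2, all lower. Library depth was 15.4 to 26.3 M reads in regions.

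Of the 17 tested regions of Hlf, 8 passed, and all 8 were lower in OHSCs. The region downstream of the gene at chr11:90333100-90335785 (GRCm38) had 38.4, 36.4, 37.0 and 37.6 CPM in YHSCs and 23.1, 23.1, 26.5 and 25.1 CPM in OHSCs (log2 fold change -0.63, SE 0.0611). The promoter region at chr11:90390550-90391186 had 25.9, 24.5, 25.5 and 26.8 CPM in YHSCs and 17.97, 17.2, 19.8 and 18.7 CPM in OHSCs (log2 fold change -0.50). In both regions the ages did not overlap, but the share of all regions for which this holds was not computed. The strongest loss was intronic, at chr11:90347697-90348370, with 7.95, 6.87, 6.68 and 6.93 CPM in YHSCs and 4.99, 3.13, 5.13 and 4.61 CPM in OHSCs (log2 fold change -0.69, SE 0.142). The median over the 17 regions was -0.46, against -0.01 over all regions, whereas the mRNA of Hlf was lower by 0.09 on the log2 scale without passing its test.

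At Prdm16, 6 of 34 regions passed (17.6%), all higher, against 23.2% of all regions in either direction and 13.7% higher. Of the 6, 1 (chr4:154594851-154595546) was tested only through its OHSC libraries, so that it had to differ. The largest rise was at chr4:154376058-154376724, with 2.93, 2.27, 2.46 and 2.51 CPM in YHSCs and 6.14, 2.78, 5.49 and 5.04 CPM in OHSCs (log2 fold change 0.90). OHSC replicate 6 lay just inside the young range of the first library, and the other 3 OHSC libraries were above it. The region at chr4:154358998-154360400 rose by 0.85 on the log2 scale, from 5.52 ± 1.14 to 10.1 ± 1.56 CPM (SD, n = 4 each). Mecom, the longest gene of the 8, had 3 higher and 1 lower of 59 regions. The largest of its rises, at chr3:30239353-30239836, was 0.83 on the log2 scale (2.27 ± 0.603 to 4.12 ± 0.720 CPM), and the intronic region at chr3:30421794-30422229 rose by 0.80 (1.62 ± 0.489 to 2.83 ± 0.151 CPM, with 3 of 4 YHSC libraries above the minimum of 1.5 CPM).

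At Msi2, 3 of 24 regions passed higher and 3 lower. Its intronic region at chr11:88467635-88468329 had 0.752, 0.843, 1.04 and 0.647 CPM in YHSCs and 1.90, 2.74, 2.90 and 1.84 CPM in OHSCs (log2 fold change 1.51, SE 0.256). All 4 YHSC libraries were below the minimum of 1.5 CPM there and all 4 OHSC libraries above it, so the region entered the test only through OHSCs and had to differ, and its values are given as a description. The Msi2 promoter at chr11:88717840-88719078 was lower in OHSCs (24.2 ± 1.71 to 19.1 ± 0.792 CPM, log2 fold change -0.36). Meis1 had 3 higher of 37 regions, the largest at chr11:19006062-19006484 (3.54 ± 0.356 to 5.29 ± 0.330 CPM, log2 fold change 0.58); it missed the threshold when YHSC replicate 3 or 4 was left out (adjusted p = 0.0114 and 0.0118). Gfi1 had 1 lower of 5, its promoter at chr5:107723982-107726476 (28.5 ± 2.32 to 21.8 ± 1.98 CPM, log2 fold change -0.40).

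Pbx3, the gene with the large rise of mRNA, had 0 of 7 regions past the test in edgeR (4 at an unadjusted p below 0.05). Its promoter at chr2:34371930-34373381 had 22.1 ± 2.22 CPM in YHSCs and 25.0 ± 1.38 CPM in OHSCs (log2 fold change 0.16, adjusted p = 0.0712). A smaller region over another start, chr2:34371060-34371421, had 3.27 ± 0.489 and 2.35 ± 0.554 CPM (log2 fold change -0.51, adjusted p = 0.0338), the lowest value at the gene, and did not pass. Mllt3 had 0 of 30 past the test (4 at an unadjusted p below 0.05), with -0.09 at its promoter. The promoter regions of Mecom, Prdm16 and Meis1 were also level, at -0.05, -0.02 and -0.02 on the log2 scale.

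The central 300 bases of 5 regions are shown from the GRCm38 assembly on the plus strand, as the regions with the highest log2 fold change at 4 genes, that of Msi2 tested only through OHSCs, and the lowest at Hlf. Capitals mark matches, on either strand, to the letters AGATAA for GATA factors, AGGAAG for ETS factors, TGTGGT for RUNX factors, TGANTCA for AP-1 and TGACAG for MEIS factors.
Mecom, chr3:30239445-30239744: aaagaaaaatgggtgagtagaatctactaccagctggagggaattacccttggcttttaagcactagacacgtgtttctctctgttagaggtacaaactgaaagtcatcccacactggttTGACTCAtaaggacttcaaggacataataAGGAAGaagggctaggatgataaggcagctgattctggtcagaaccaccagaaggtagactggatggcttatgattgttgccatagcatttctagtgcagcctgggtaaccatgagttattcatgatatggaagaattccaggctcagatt
Prdm16, chr4:154376242-154376541: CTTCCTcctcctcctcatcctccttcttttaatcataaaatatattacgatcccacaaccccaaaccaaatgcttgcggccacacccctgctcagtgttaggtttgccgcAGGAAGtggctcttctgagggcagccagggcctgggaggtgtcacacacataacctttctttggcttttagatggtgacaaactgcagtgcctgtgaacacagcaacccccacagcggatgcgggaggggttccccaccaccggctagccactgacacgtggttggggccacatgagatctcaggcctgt
Msi2, chr11:88467833-88468132: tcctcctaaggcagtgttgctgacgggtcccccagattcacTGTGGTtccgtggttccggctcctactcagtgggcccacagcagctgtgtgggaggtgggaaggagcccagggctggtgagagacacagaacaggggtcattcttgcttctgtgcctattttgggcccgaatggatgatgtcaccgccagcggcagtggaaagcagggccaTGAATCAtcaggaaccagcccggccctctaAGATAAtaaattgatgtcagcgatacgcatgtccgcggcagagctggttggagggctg
Meis1, chr11:19006124-19006423: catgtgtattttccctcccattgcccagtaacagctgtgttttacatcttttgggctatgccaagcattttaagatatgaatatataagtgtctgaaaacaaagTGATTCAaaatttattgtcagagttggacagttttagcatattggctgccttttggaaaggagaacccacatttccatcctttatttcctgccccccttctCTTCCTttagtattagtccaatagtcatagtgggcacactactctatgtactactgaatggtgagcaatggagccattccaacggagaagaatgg
Hlf, chr11:90347884-90348183: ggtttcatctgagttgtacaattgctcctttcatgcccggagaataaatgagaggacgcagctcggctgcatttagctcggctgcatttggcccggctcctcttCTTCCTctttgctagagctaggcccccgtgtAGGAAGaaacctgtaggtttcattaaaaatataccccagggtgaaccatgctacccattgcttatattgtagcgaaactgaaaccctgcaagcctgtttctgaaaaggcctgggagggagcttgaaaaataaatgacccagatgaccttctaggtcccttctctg

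The windows that gained accessibility at Mecom, Msi2 and Meis1 each held 1 AP-1 match, which 12.7% of the 127681 regions of this length held. The Mecom and Meis1 windows also held 1 ETS match each, and the Prdm16 window and the Hlf window, which lost accessibility, 2 each; 50% of all regions held an ETS match. The Msi2 window held a GATA and a RUNX match (14.8% and 28.4% of regions), and no window held the MEIS letters (21.1% of regions). No 2 of these motifs share letters in a window. A match is a description of the letters and no evidence of binding.

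The 250 bases upstream of the Hlf start, from the RefSeq promoter table on GRCm38, are shown because accessibility fell there; they read along the minus strand, as the gene does, and hold none of the 5 motifs.
Hlf promoter, chr11:90390918-90391167: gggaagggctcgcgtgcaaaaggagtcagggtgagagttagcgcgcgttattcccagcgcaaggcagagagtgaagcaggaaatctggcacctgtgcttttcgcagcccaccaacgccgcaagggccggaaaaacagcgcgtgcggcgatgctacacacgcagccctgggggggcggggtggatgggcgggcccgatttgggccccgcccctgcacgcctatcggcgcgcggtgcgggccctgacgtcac

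H3K27ac, a mark of active promoters and enhancers, had 79 peaks given to the 8 genes. The signal is scaled to a fixed number of reads per library, and was tested with limma on log2(signal + 0.5), so that fold changes of weak peaks are understated. Whether a peak entered the list through 1 age alone was not examined, so a pass of a peak that is weak in YHSCs is a description. Of the 79 peaks, 7 passed an adjusted p of 0.05 (6 higher, 1 lower), against 2.94% of all 39557 peaks. By the ratio rule of the study, which uses no test (old to young means above 1.5-fold and each old library at least 1.2-fold above each young one, or the reverse), 14 were higher and 1 lower, against 11.4% of all peaks in either direction. The log2 fold change was above 0 at 59 of the 79. With all libraries scaled to the same median signal this number was 47, and the split over all peaks went from 1000 higher and 164 lower to 828 and 653. The number that passed at the 8 genes rests on single libraries: it was 1 without OHSC replicate 1 or without replicate 2, 25 without YHSC replicate 1 and 13 without YHSC replicate 2.

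At Pbx3, 1 of 8 peaks passed, and it was higher. The log2 fold change was above 0 at 7 of the 8, and 4 met the ratio rule. The intronic peak at chr2:34344994-34345611 had 0.472 and 0.315 in YHSCs and 1.27 and 1.46 in OHSCs, and it passed the test (log2 fold change 1.07, SE 0.252, adjusted p = 0.0142 from limma). Both YHSC values lay below 0.5, so this peak may have been listed through OHSCs alone, and its values are given as a description. The call was lost without OHSC replicate 1 (adjusted p = 0.128) or replicate 2 (adjusted p = 0.382). The peak at the start sites, chr2:34370386-34371923, had 2.57 and 2.96 in YHSCs and 3.90 and 4.75 in OHSCs. The latter lies over the ATAC-seq region with a log2 fold change of -0.51. This start site peak fell short of the threshold (log2 fold change 0.56, adjusted p = 0.0564 from limma). The median over the 8 peaks was 0.51, against 0.05 over all peaks.

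At Mecom 3 of 29 peaks passed, all higher. The largest was at chr3:30421525-30422340, over the ATAC-seq region 30421794 to 30422229, with 2.30 and 1.39 in YHSCs and 4.33 and 3.49 in OHSCs (log2 fold change 0.93, adjusted p = 0.00366, but 0.187 without OHSC replicate 1). At Msi2, 2 of 10 passed, both higher. The peak at chr11:88467880-88468517, over that intronic ATAC-seq region, had 0.822 and 0.457 in YHSCs and 2.06 and 1.46 in OHSCs (log2 fold change 1.00, adjusted p = 0.0146, but 0.391 without OHSC replicate 1 and 0.0930 without replicate 2). Its lower YHSC value was below 0.5, and the limit given for the intronic Pbx3 peak holds here too. The peak at chr11:88687320-88688294 went from 3.25 and 2.08 to 4.71 and 5.85 (log2 fold change 0.89, adjusted p = 0.00272).

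Meis1 was the gene with a lower peak, and it was its promoter. The broad peak at chr11:19014343-19018487 had 16.8 and 14.1 in YHSCs and 10.6 and 11.02 in OHSCs (log2 fold change -0.49, SE 0.103, adjusted p = 0.00495 from limma, but 0.198 without OHSC replicate 1 and 0.203 without replicate 2). The promoter ATAC-seq region of Meis1, at chr11:19018389-19019253, was level (-0.02), but it overlaps only the edge of this peak. The mRNA of Meis1 was 0.13 higher on the log2 scale. Promoter peaks of the other genes did not pass: Mecom 0.00, Prdm16 0.32, Hlf -0.09, Mllt3 -0.15, Gfi1 0.18 and Msi2 -0.28 on the log2 scale, with adjusted p-values of 0.207 or more. The Mecom peak lies over ATAC-seq regions with -0.13 and -0.17, at another start than the promoter region of Mecom given above. Prdm16, Hlf, Mllt3 and Gfi1 had no peak past the test among 18, 2, 5 and 2, with 5, 1, 1 and 1 at an unadjusted p below 0.05.

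The marks met in part. Of the 213 tested ATAC-seq regions, 68 lay over an H3K27ac peak of the same gene. Among the 15 regions that opened, 7 lay over a peak, and of these 7 peaks 3 passed higher, 1 of them over the Msi2 region tested only through OHSCs, and 6 met the ratio rule. The H3K27ac change was above 0 at all 7, as it was at 59 of the 79 peaks. Among the 13 regions that closed, 5 lay over a peak, of which 2 had an H3K27ac change above 0 and none passed lower. Both assays compare the same ages, but in separate libraries.

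**Figure D2:**
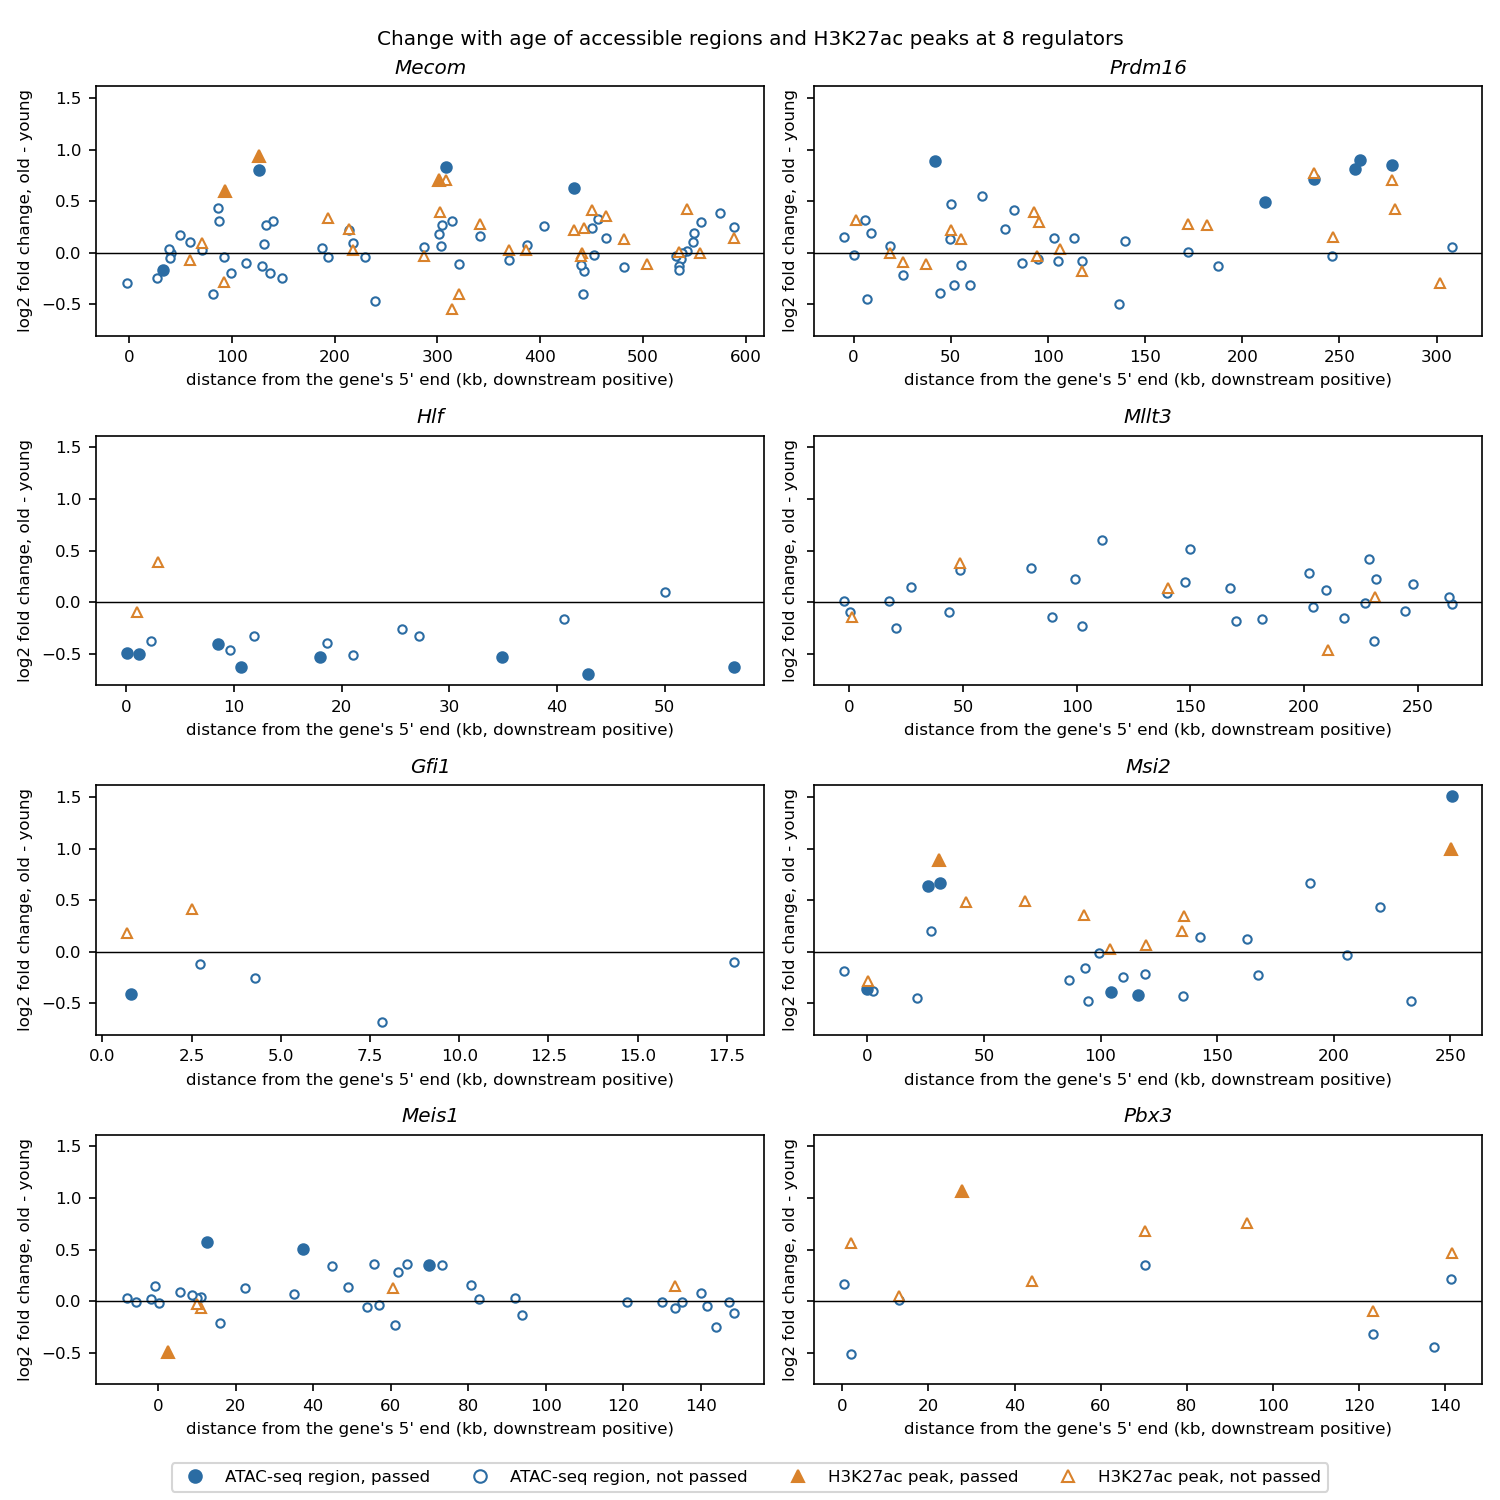
Log2 fold change (OHSC minus YHSC) of each tested ATAC-seq region (circles) and H3K27ac peak (triangles) against its distance from the 5' end of the gene in kb, downstream positive; filled symbols passed (adjusted p below 0.01 for ATAC-seq and 0.05 for H3K27ac). All 8 filled circles at Hlf lie below 0 and all 6 at Prdm16 above it, the Msi2 region at 1.51 entered the test only through OHSC libraries, and the filled triangle below 0 is the Meis1 promoter at -0.49.

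In YHSCs all 8 genes carried H3K4me3, the mark of active start sites, at their promoters. The signal was 37.7 and 40.6 in the 2 libraries at Hlf, 38.7 to 46.7 over 5 neighboring peaks around the Meis1 start, 31.7 and 32.1 at Msi2, 28.7 and 29.5 at Mllt3, and 15.5 and 15.8 at Gfi1. Mecom had peaks over 2 clusters of its annotated starts, 31.3 and 34.2 at chr3:30507001-30509992 and 28.5 and 31.0 at chr3:30010439-30013465, whereas an H3K27ac peak was listed at the latter start and not at the former. H3K27me3, a Polycomb mark of repressed genes, was found at Gfi1 and Pbx3. At Gfi1 a domain of 13000 bp at chr5:107719000-107731999 covered the promoter with a signal of 1.33 and 1.64, above 99.3% of all H3K27me3 domains, beside the H3K4me3 peak. At Pbx3, 2 domains in the gene body had signals of 0.361 to 0.523. The domains of H3K36me3, a mark of transcribed gene bodies, which are listed by position without age or signal, covered 85.6% to 100% of Mecom, Prdm16, Hlf, Mllt3, Msi2 and Meis1, but 57% of Gfi1 and 58.8% of Pbx3, the 2 genes with H3K27me3.

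The question of the knockdown experiments was what the shorter Btaf1 variant does in OHSCs. Reads of the whole Btaf1 gene, which do not separate the variant from the long form, were lower with both shRNAs: 137 and 141 CPM in control against 110 to 119 CPM in culture, and 161 and 165 CPM against 118 to 139 CPM after transplantation. In culture 1 of 8 regulators passed (adjusted p below 0.05, edgeR, 4 shRNA against 2 control libraries), and it was called at a fold change above 1.5. Of all 19763 genes, 3.36% passed and 0.906% were called.

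The regulator that passed was Gfi1. It had 13.4 and 13.2 CPM with control shRNA, 9.33 and 7.93 CPM with shRNA1 and 7.94 and 8.16 CPM with shRNA2. Both control libraries lay above all 4 shRNA libraries. The log2 fold change was -0.69 (SE 0.114, 95% interval -0.94 to -0.45, adjusted p = 0.00350). Fitted as groups of their own, shRNA1 gave -0.65 (adjusted p = 0.00161) and shRNA2 -0.73 (adjusted p = 0.000560), with 9.05% and 8.68% of genes passing, and both contrasts share the same 2 control libraries. With either control library left out, the fall was -0.68 or -0.70 and did not pass (adjusted p = 0.0912 and 0.0703). GMP markers summed to 171 and 180 CPM with control shRNA and 203 to 254 CPM with the shRNAs, and macrophage markers to 25.7 and 27.2 CPM and 38.8 to 43.1 CPM. MEP and erythroid markers summed to 42.4 CPM in both control libraries and 31.8 to 35.8 CPM with the shRNAs. Of the markers with enough reads, 0 of 3 GMP markers passed in edgeR (1 at an unadjusted p below 0.05), 1 of 1 macrophage marker passed higher and 2 of 4 MEP and erythroid markers passed lower. Of the megakaryocyte markers 1 of 4 passed lower, and of the HSC markers 1 of 10 passed lower. HSC markers summed to 1876 and 1835 CPM with control shRNA and 1957 to 2033 CPM with the shRNAs. The part of all these markers in the fall of Gfi1 was not tested.

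Hlf had 145 and 146 CPM with control shRNA in culture, 157 and 167 CPM with shRNA1 and 165 and 169 CPM with shRNA2. All shRNA libraries were higher, but the combined change of 0.16 did not pass (adjusted p = 0.0821), while it passed for shRNA2 alone (0.20, adjusted p = 0.00333). Msi2 had 113 and 114 CPM with control, 98.2 and 97.6 CPM with shRNA1 and 109 and 112 CPM with shRNA2. The combined change of -0.14 did not pass (adjusted p = 0.311). Msi2 fell with shRNA1 (-0.24, adjusted p = 0.000923), not detectably with shRNA2 (-0.05, adjusted p = 0.669), and the shRNAs differed from each other by -0.20 (adjusted p = 0.0106, with 5.59% of genes past the test), a contrast run after the values had been seen. Mecom, Prdm16, Mllt3, Meis1 and Pbx3 had combined changes of -0.01 to 0.10 with 95% intervals inside -0.21 to 0.26. Libraries of the groups did not overlap for 4 regulators (Mecom, Hlf, Gfi1 and Msi2), against 25.4% of all genes.

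After transplantation 0 of 8 regulators and 0% of 20350 genes passed in edgeR. At an unadjusted p below 0.05 the count was 2 of 8 (Gfi1 and Msi2), and DESeq2 passed 0 of 8. Gfi1 went the other way from culture, with 36.8 and 40.9 CPM with control shRNA, 63.9 and 63.2 CPM with shRNA1 and 37.5 and 48.9 CPM with shRNA2. The shRNA1 libraries stood above the other 4, and the shRNA2 libraries lay around the controls. The combined log2 fold change was 0.45 (95% interval 0.0022 to 0.90, adjusted p = 0.881). Msi2 had 131 and 143 CPM with control, 114 and 100.02 CPM with shRNA1 and 126 and 114 CPM with shRNA2. It was the regulator whose control and shRNA libraries did not overlap (14.7% of all genes), with a change of -0.27 (95% interval -0.48 to -0.07, adjusted p = 0.852). Mllt3 scattered from 107 to 208 CPM, without separation of the groups.

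The transplanted libraries also varied in markers of mature granulocytes, of which 0 of 5 passed with the knockdown in edgeR (0 at an unadjusted p below 0.05). The sum of 5 markers was 108 and 6.17 CPM with control, 522 and 166 CPM with shRNA1 and 57.4 and 405 CPM with shRNA2, in replicate order. GMP markers summed to 297 and 195 CPM, 454 and 202 CPM, and 191 and 223 CPM, with 0 of 7 passing (1 at an unadjusted p below 0.05). HSC markers summed to 3217 and 3198 CPM with control and 2892 to 3053 CPM with the shRNAs, with 0 of 10 passing (2 at an unadjusted p below 0.05). Macrophage markers summed to 25.2 and 21.4 CPM with control, 22.4 and 17.1 CPM with shRNA1 and 49.2 and 40.1 CPM with shRNA2, with 0 of 5 passing. The sort took cells without lineage markers, Gr1 and Mac1 of granulocytes among them, and the part of these markers in the level of Gfi1 was not tested.

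The effect of the knockdown on Gfi1 differed between settings by 1.14 on the log2 scale (SE 0.244, 95% interval 0.62 to 1.67), the largest difference among the 8. In edgeR this interaction had an adjusted p of 0.0958, and 0 of 8 regulators and 0.21% of 21443 genes passed. At an unadjusted p below 0.05, 1 of 8 did. DESeq2 passed Gfi1 (1.15, adjusted p = 0.000847), and so did edgeR without replicate 1 of transplanted shRNA2 (1.28, adjusted p = 0.00615). For the other 7 regulators the differences were between -0.28 and -0.02.

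**Figure D3:**
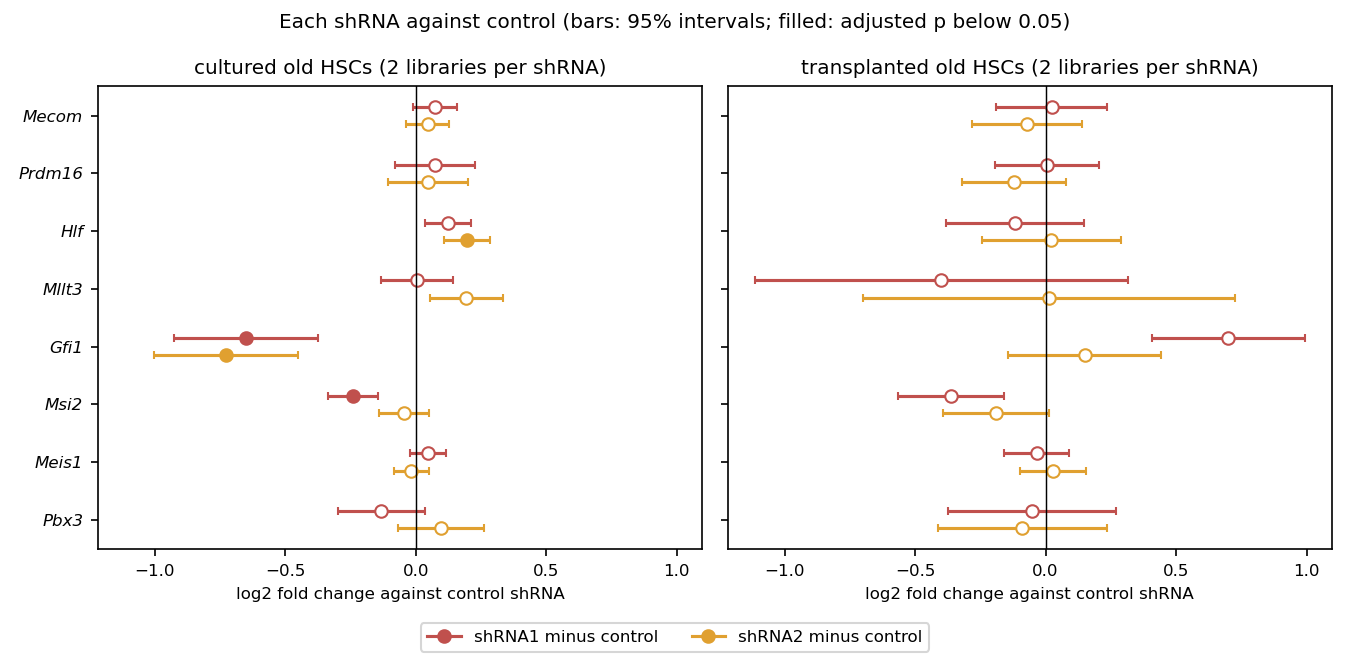
Log2 fold change of each regulator with shRNA1 (red) and shRNA2 (yellow) against control shRNA in cultured (left) and transplanted (right) OHSCs; points are estimates of the 3-group edgeR fit, bars are 95% intervals, and filled points have an adjusted p below 0.05. Gfi1 lies at -0.65 and -0.73 in culture and at 0.70 and 0.15 after transplantation.

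Of the genes related to the regulators, 1 passed with the knockdown in edgeR. In culture 0 of 9 tested paralogs (2 at an unadjusted p below 0.05, 0 in DESeq2), 0 of 20 partners and cofactors (5 and 2) and 1 of 16 other stem cell regulators (5 and 2) passed. The gene was Ezh1, a Polycomb methyltransferase, with 54.9 ± 0.374 CPM in control (SD, n = 2) and 74.1 ± 6.07 CPM in shRNA libraries (SD, n = 4; log2 fold change 0.41, adjusted p = 0.00368 from edgeR), and it was named after its value was seen. After transplantation none of the 45 tested genes of the 3 lists passed, with 0, 0 and 1 at an unadjusted p below 0.05 and 0, 0 and 0 in DESeq2.

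Larger differences were measured between settings. In control libraries 7 of 8 were higher after transplantation than in culture (adjusted p below 0.05), 6 of them more than 1.5-fold. Of 19518 genes 48.3% passed, and 27.8% did with such a fold change. The setting, the sort gate and the sequencing of each experiment cannot be told apart. Mllt3 showed the largest difference, with 44.6 and 45.9 CPM in culture and 147 and 199 CPM after transplantation (3.46-fold, log2 fold change 1.79, SE 0.142). Gfi1 was at 13.4 and 13.2 against 36.8 and 40.9 CPM (2.64-fold) and Hlf at 145 and 146 against 338 and 410 CPM (2.32-fold). Prdm16, Mecom and Meis1 were 1.68-, 1.57- and 1.54-fold higher, and Pbx3 1.45-fold. Msi2 did not pass (113 and 114 against 131 and 143 CPM, log2 fold change 0.13, adjusted p = 0.114), although it passed without transplanted replicate 1 (0.19, adjusted p = 0.00775). The median log2 fold change was 0.70 over the 8 regulators and 0.01 over all genes.

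Some relatives moved with them. Meis3 was at 0.607 ± 0.101 CPM in culture and 4.68 ± 1.57 CPM after transplantation (log2 fold change 2.79, adjusted p = 0.000217 from edgeR, SD over n = 2), Meis2 at 0.445 ± 0.0985 and 1.54 ± 1.05 CPM (1.64, adjusted p = 0.0372), and Hoxa10 at 14.8 ± 0.977 and 46.1 ± 1.87 CPM (1.49, adjusted p = 5.36e-06). Hoxa9 rose from 55.1 ± 0.0163 to 104 ± 4.10 CPM (0.76), Ezh1 from 54.9 ± 0.374 to 135 ± 7.74 CPM (1.15) and the LIM domain cofactor Lmo2 from 462 ± 15.1 to 935 ± 4.00 CPM (0.87). The corepressor Ctbp2 was lower (-0.77). Over the lists, 4 of 9 paralogs passed higher and 3 lower, 6 and 9 of 20 partners, and 8 and 4 of 16 other regulators. The 10 HSC markers, for comparison, summed to 1835 to 1876 CPM in culture and 3198 to 3217 CPM after transplantation. Kit had the largest part of this sum in both, and of the 10 markers 6 passed higher and 1 lower. Megakaryocyte markers summed to 1253 and 1288 CPM in culture and 429 and 610 CPM after transplantation, where 3 of 4 tested passed lower. Macrophage markers summed to 25.7 and 27.2 CPM and to 25.2 and 21.4 CPM, and of 4 tested 3 passed higher and 1 lower. Mature granulocyte markers summed to 1.64 and 2.15 CPM in culture and 108 and 6.17 CPM after transplantation; 0 of 5 tested passed in edgeR (0 at an unadjusted p below 0.05) and 4 in DESeq2. Of the GMP markers 1 of 5 tested passed lower, of the MEP and erythroid markers 1 of 5 passed lower, and 1 of 1 B cell marker passed higher. The part of these markers in the differences between settings was not tested.

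Across the blood hierarchy of young mice, 7 of the 8 regulators had their highest level in HSCs, and Gfi1 in GMPs. HSC libraries come from another experiment than the progenitors, with another kit and sequencer, so cell type and experiment cannot be told apart; all 8 regulators passed against CMP, GMP and MEP, where 78.3%, 82.5% and 86.2% of 25716 genes did. The median log2 difference of all genes, HSC minus progenitor, was 0.49, 0.70 and 1.11 after TMM, and 0.61, 0.79 and 1.14 with DESeq2 size factors. The medians of the 8 regulators were 2.65, 3.97 and 6.23, and the directions were the same under both scalings.

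GMPs and MEPs are separate branches below CMPs. MEP and erythroid markers summed to 6501 to 6905 CPM in MEPs and 372 to 391 CPM in CMPs. Megakaryocyte markers summed to 24.5 to 25.2 CPM in MEPs and 565 CPM in CMPs, and 4 of 4 tested passed lower in MEPs. By these markers the MEP libraries were erythroid rather than megakaryocytic. GMP markers summed to 56750 to 57706 CPM in GMPs and 16207 to 19540 CPM in CMPs. Mecom had 348 ± 12.2 CPM in YHSCs (SD, n = 4), 6.28 and 7.59 CPM in CMPs, 2.20 and 2.53 CPM in GMPs and 0.732 and 0.736 CPM in MEPs. The log2 difference between HSC and CMP was 5.29, the widest among the 8. Hlf had 638 ± 13.9 CPM in YHSCs, 16.6 and 19.7 CPM in CMPs, 7.84 and 8.37 CPM in GMPs and 0.340 and 0.563 CPM in MEPs, where it was 9.98 below HSCs on the log2 scale. Prdm16 had 113 ± 3.86 CPM in YHSCs, 6.33 and 9.61 CPM in CMPs, 5.18 and 6.90 CPM in GMPs and 2.09 and 2.28 CPM in MEPs. For Prdm16, CMPs and GMPs overlapped, and their difference of -0.18 did not pass (adjusted p = 0.604).

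Meis1 had 677 ± 17.3 CPM in YHSCs, 158 and 168 CPM in CMPs, 20.4 and 27.9 CPM in GMPs and 2.06 and 2.29 CPM in MEPs. Msi2 had the narrowest range, with 109 ± 3.95 CPM in YHSCs, 26.4 and 28.4 CPM in CMPs, 11.8 and 11.9 CPM in GMPs and 18.3 and 19.0 CPM in MEPs. Pbx3 had 29.7 ± 2.90 CPM in YHSCs, 6.36 and 6.79 CPM in CMPs, 6.03 and 6.76 CPM in MEPs, which overlapped, and 2.11 and 2.48 CPM in GMPs.

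Gfi1 was highest in GMPs, and Mllt3 was higher in MEPs than in CMPs or GMPs. Gfi1 had 24.6 ± 0.387 CPM in YHSCs, 27.4 and 33.6 CPM in CMPs and 80.8 and 96.9 CPM in GMPs, whereas MEPs held 6 and 2 reads of it (0.169 and 0.0566 CPM). It was 2.40 lower in HSCs than in GMPs on the log2 scale and 7.25 higher than in MEPs. Mllt3 had 304 ± 12.1 CPM in YHSCs, 10.6 and 14.0 CPM in CMPs and 4.25 and 4.49 CPM in GMPs, but 83.0 and 93.9 CPM in MEPs.

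Within the progenitor experiment, which shares its libraries' preparation, the branches could be compared directly. From CMP to MEP 7 of 8 regulators passed in edgeR, against 64.6% of 18234 genes: Gfi1 (-7.92), Meis1 (-6.11), Hlf (-5.20), Mecom (-3.12), Prdm16 (-1.75) and Msi2 (-0.44) were lower and Mllt3 higher (2.96), while Pbx3 was level (0.07, adjusted p = 0.758). From CMP to GMP 7 of 8 passed, against 34.8%: Gfi1 was higher (1.76), and Meis1 (-2.53), Mecom (-1.33), Pbx3 (-1.30), Mllt3 (-1.27), Msi2 (-0.99) and Hlf (-0.95) were lower. Between MEP and GMP all 8 differed, against 61.4%, with Mllt3 (4.24), Pbx3 (1.37) and Msi2 (0.55) higher in MEPs and the other 5 lower. The adjusted p of each passing regulator was 0.00425 or less. The median over the 8 was -2.43, -1.13 and -1.68 in the 3 comparisons, against -0.07, 0.01 and -0.03 over all genes.

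Gfi1b, the partner gene of Gfi1 in the erythroid and megakaryocytic lineage, had 69.4 ± 6.21 CPM in CMPs, 475 ± 17.8 CPM in MEPs and 3.20 ± 2.13 CPM in GMPs (SD, n = 2), the opposite order to Gfi1. Hoxa9 had 42.5 ± 0.694 CPM in CMPs, 26.3 ± 2.18 CPM in GMPs and 7.18 ± 0.714 CPM in MEPs. Of the other stem cell regulators, Erg (-6.68) and Fli1 (-5.12) were lower in MEPs than in CMPs and Tal1 higher (1.61). From CMP to MEP the lists had 1 higher and 4 lower of 8 tested paralogs, 8 and 11 of 20 partners and 2 and 10 of 14 other regulators. From CMP to GMP the counts were 0 and 5, 2 and 9, and 0 and 11. Gata2 was the other regulator that fell furthest toward GMPs (399 ± 54.5 to 43.6 ± 20.2 CPM, log2 fold change -2.98).

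Some list members had larger log2 differences between HSCs and CMPs than any of the 8 regulators. Hoxb5 had 17.7 ± 2.55 CPM in YHSCs (SD, n = 4) and 0.334 ± 0.162 CPM in CMPs (SD, n = 2; log2 difference 5.36), and Nkx2-3 93.1 ± 4.45 and 0.740 ± 0.967 CPM (6.60). Suv39h1, a histone methyltransferase that works with EVI1, was lower in YHSCs than in CMPs (76.0 ± 2.02 against 178 ± 0.302 CPM, -1.58). Higher and lower counts against CMP were 7 and 2 of 10 paralogs, 5 and 11 of 20 partners and 13 and 2 of 16 other regulators, against GMP 9 and 1, 7 and 10, and 13 and 0, and against MEP 7 and 2, 9 and 11, and 13 and 1.

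**Figure D4:**
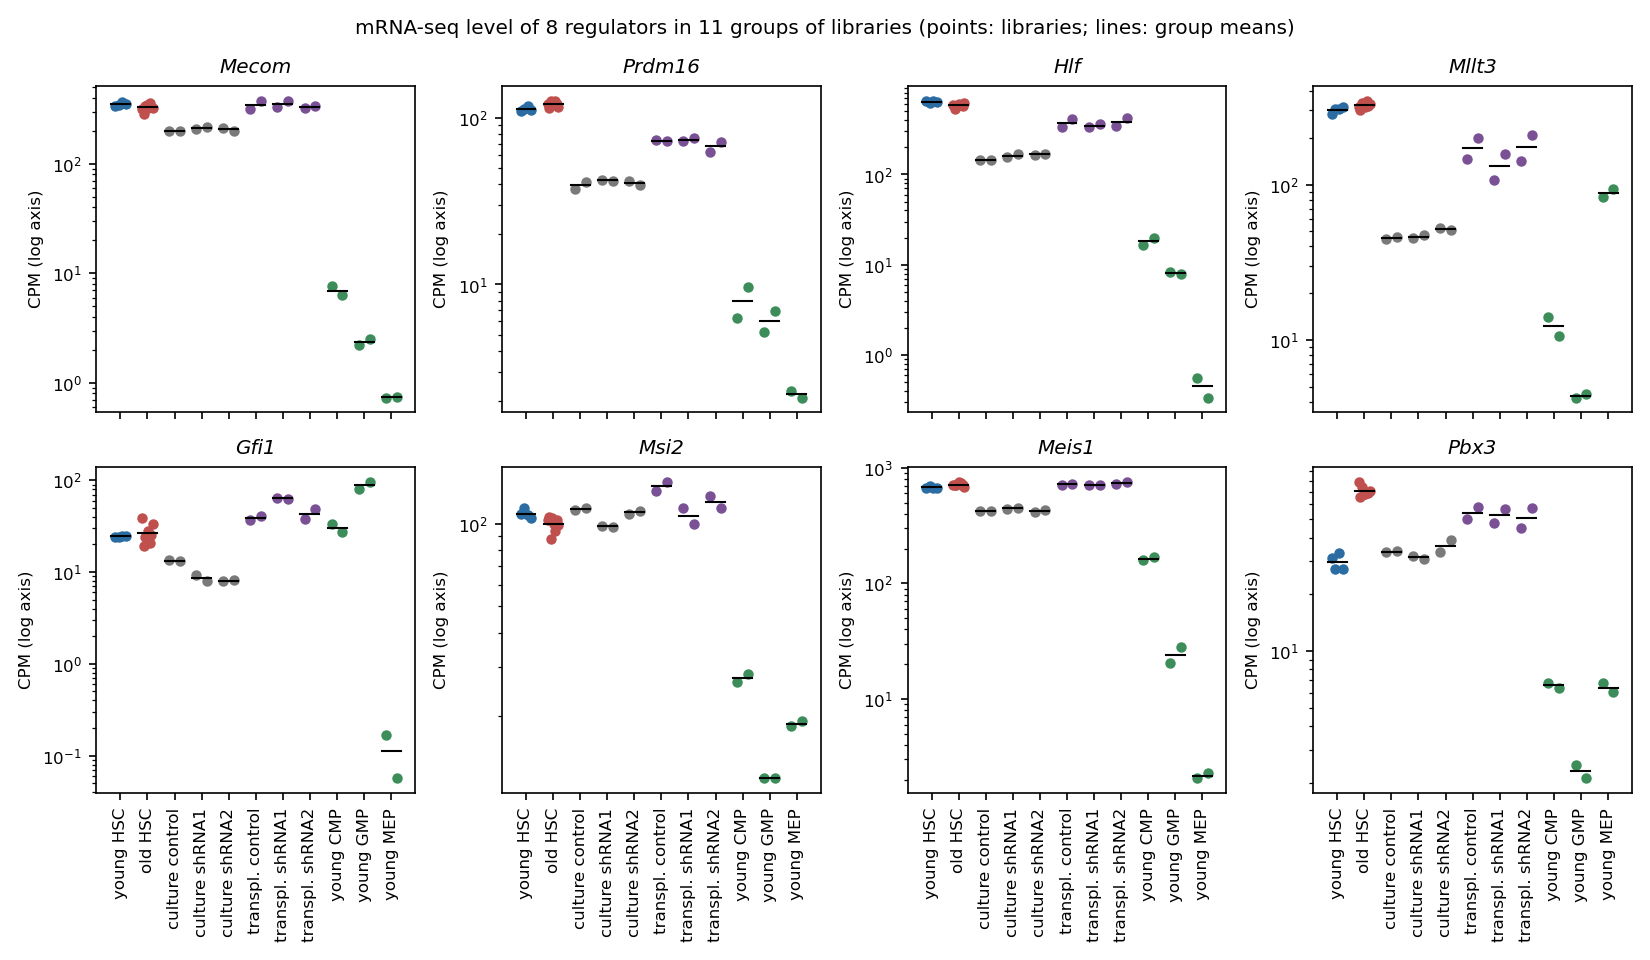
mRNA-seq level (CPM, log axes) of each regulator in the 11 groups of libraries; points are libraries and lines group means. Mecom, Hlf and Meis1 are highest in HSCs among the young cell types, lower in CMPs and lower again in both GMPs and MEPs, with MEPs lowest, Mllt3 is higher in MEPs (83.0 and 93.9 CPM) than in GMPs (4.25 and 4.49 CPM), and Gfi1 is highest in GMPs (80.8 and 96.9 CPM).

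Ordered by mean over the 11 groups, neighbors often could not be separated. For Mecom the first 5 places, transplanted and freshly sorted HSCs (327 to 354 CPM), overlapped one after the other, and cultured HSCs (199 to 214 CPM) lay between them and the progenitors. For Pbx3 OHSCs came first with no overlap with the transplanted groups (44.7 to 58.0 CPM), followed by cultured HSCs (30.8 to 38.6 CPM) and YHSCs (27.3 to 33.1 CPM), which overlapped with one of the cultured groups; all shRNA groups were OHSCs by origin. For Gfi1 the OHSC libraries, from 19.2 to 39.1 CPM, overlapped with both CMPs and YHSCs. Mllt3 in MEPs (83.0 to 93.9 CPM) was above all cultured HSC groups (44.6 to 52.6 CPM). Levels set across experiments rest on libraries prepared and sequenced separately.

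Over the 10 young libraries of HSCs, CMPs, GMPs and MEPs, the genes whose log2 CPM ran most closely with each regulator, by Pearson's r among 25715 genes, were Gm11767 and Npdc1 for Mecom, Gm26603 and Tceal7 for Prdm16, Col16a1 and E130310I04Rik for Hlf, C1qtnf4 and Aldh7a1 for Mllt3, Anxa1 and Ppm1m for Gfi1, Efcab14 and Prmt2 for Msi2, 2810410L24Rik and Gm16140 for Meis1, and Fn3k and Abi3 for Pbx3. The r values were 0.996 to 0.999. The 10 points fall into 4 cell types and 2 experiments, so r mostly reflects 4 group means. Gm16140 overlaps Meis1 on the other strand and can share its reads. Among the regulators themselves r was 0.99 for Mecom and Prdm16, 0.98 for Mecom and Hlf, and -0.43 for Gfi1 and Mllt3.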

How the data were processed

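After adapter trimming (Trim Galore, cutadapt), the authors mapped RNA-seq reads to mm10 by STAR and deposited raw featureCounts counts over GENCODE M22 genes. The sources used here do not give the strand and multi-mapping settings. The authors aligned ATAC-seq and ChIP-seq reads with BWA, removed duplicate, multi-mapped and blacklisted reads, called peaks of ATAC-seq, H3K4me3 and H3K27ac with MACS, took broad domains of H3K27me3 and H3K36me3 from IDEAS chromatin states, and deposited ATAC-seq counts over a consensus set of regions. Per the file headers and methods, the deposited histone values are a signal per peak, scaled by the authors to a fixed read number. Depth cannot be read from such values. The authors' reporting summary does list read numbers per ChIP-seq library, and these are uneven among the H3K27ac libraries. What part this unevenness had in the H3K27ac counts was not tested. The H3K36me3 table holds the start and end of domains only, as other values without a signal. The labels name a total RNA kit for YHSC and OHSC libraries and the methods another kit of the same maker. Columns of the authors' own old to young ratios and log2 ratios were not used, nor were 8 columns of per-sample values without a matching label.

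Groups came from the labels. The 92 spike-in RNAs were left out. Counts were tested with edgeR 4.0.16 (TMM, filterByExpr, robust quasi-likelihood fit) in R 4.3.3 and adjusted by Benjamini-Hochberg over all genes or regions. ATAC-seq regions needed more than 1.5 CPM in at least 4 libraries. H3K27ac was tested with limma 3.58.1 on log2(signal + 0.5). The alternatives were DESeq2 1.42.0, its size factors, no filter, other pseudocounts and windows, the replicate number as a block and leaving out each library. Python 3.11.15, pandas 2.3.3 and matplotlib 3.10.9 were used for joins and figures. The tests were run first on simulated data. The 8 genes and the gene lists were chosen with earlier results of these data known. Of each list, at most the 2 largest rises and falls among called genes were named, with the largest, smallest and promoter region or peak of each gene and the 2 most similar genes. A called list gene that the rule would name is not reported here. Other list genes, regions and peaks given by name were picked after their values were seen. RNA-seq depth was 20.5 to 42.7 M reads on genes. No pair of libraries agreed within sampling noise.

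The labels number the replicates of YHSCs and OHSCs alike but state no shared mouse, litter or day, and same-numbered libraries did not deviate together, so they were not treated as pairs.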

Additional observations from a re-analysis of the deposited data

Results flagged for a closer look

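In 64 sets of 4 to 8 values of the 8 genes, 3 single libraries stood apart from the rest of their group by Dixon's criterion, which chance meets in about 1 in 20 sets. All 3 were ATAC-seq values of OHSCs. In the promoter region of Mecom, OHSC replicate 6 had 66.8 CPM, while the other 3 had 72.6 to 73.5 CPM. In the Mllt3 region with the lowest log2 fold change, OHSC replicate 5 had 1.30 CPM, against 2.11 to 2.19 CPM in the others. In the Gfi1 region with the highest log2 fold change, OHSC replicate 7 had 5.53 CPM, against 3.51 to 3.79 CPM in the others. None of these regions passed the test with age.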

How the results depend on the processing

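The number of regulators past the test depended on the settings in part. With age it was 4, but 1 with no filter on low counts, where Pbx3 passed, and 2 to 4 when 1 library was left out. In cultured OHSCs it was 1, but 2 with no filter, 3 when each shRNA was fitted as a group of its own, and 0 to 2 with 1 library left out. For the difference of the knockdown between settings it was 0, but 1 with DESeq2 and 0 to 1 with 1 library left out. For H3K27ac peaks it was 7, but 15 by the ratio rule without a test and 1 to 25 with 1 library left out. The causes were not tested.

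The replicate number as a block gave 1 regulator with age. The correlations of same-numbered YHSC and OHSC libraries were -0.22 to 0.07, so the numbers are not known to pair mice. For ATAC-seq alone, no paired analysis was possible because its libraries of the 2 ages share no replicate number.

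Over all genes, cultured OHSCs had 336 higher and 329 lower genes, 642 and 657 with no filter, 813 and 1143 with a group per shRNA, 484 and 192 at an unadjusted p with a fold above 1.5, 235 and 210 with the block, and 75 and 66 or 84 and 66 without control replicate 1 or 2. Transplanted OHSCs had 0, 29 and 19 with DESeq2 and 290 and 165 at an unadjusted p with a fold above 1.5. The difference between settings had 22 and 23, 183 and 116 with DESeq2, 48 and 46 with no filter, 13 and 13 with the block, and from 1 and 0 (without cultured control replicate 1) to 61 and 56 (without transplanted shRNA1 replicate 2) with 1 library left out. H3K27ac peaks had 1000 and 164, 4249 and 560 or 1639 and 1332 without a YHSC library, and 212 and 26 or 85 and 6 without an OHSC library.

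Some log2 fold changes near 0 turned direction when 1 library was left out. In culture Prdm16 ranged from -0.0028 to 0.13 and Pbx3 from -0.085 to 0.033. After transplantation Mecom ranged from -0.14 to 0.11, Hlf from -0.18 to 0.10, Mllt3 from -0.39 to 0.061, Meis1 from -0.026 to 0.021 and Pbx3 from -0.18 to 0.043. The difference between settings ranged from -0.20 to 0.054 for Mecom, -0.040 to 0.011 for Meis1 and -0.16 to 0.062 for Pbx3. From CMP to MEP Pbx3 ranged from -0.023 to 0.15, and from CMP to GMP Prdm16 from -0.45 to 0.14. Promoter accessibility ranged from -0.068 to 0.0095 at Prdm16 and -0.049 to 0.017 at Meis1. H3K27ac ranged from -0.16 to 0.17 at the Mecom promoter, -0.20 to 0.019 at the Hlf promoter, -0.081 to 0.45 at the Gfi1 promoter and -0.24 to 0.042 at the lowest Pbx3 peak. The Mecom promoter peak was at -0.083 with all libraries scaled to the same median.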
